A study of Mus musculus with 32 samples.

Results

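The enzymes and transporters that take glucose to pyruvate, lactate and the mitochondrial pyruvate dehydrogenase complex form the gene module described here. A list of 37 genes was drawn up by function, with earlier results of these data known. Each gene was represented by the probe sets that name it and no other gene. Of the 37, 33 were measured, out of 19938 genes with such a probe set on the array. Gpi1, Pfkfb1, Gapdh and Eno1 had none, so the ubiquitous isoforms of glucose-6-phosphate isomerase, glyceraldehyde-3-phosphate dehydrogenase and enolase are not analysed here.

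Glucose enters a cell through facilitative transporters of the Slc2a family and is trapped by hexokinase. Phosphofructokinase commits it to glycolysis under the control of fructose-2,6-bisphosphate, aldolase splits the hexose, and the lower steps end with pyruvate kinase. Pyruvate is then either reduced to lactate by lactate dehydrogenase or oxidized by pyruvate dehydrogenase, which pyruvate dehydrogenase kinases (PDKs) switch off by phosphorylation. The testis is known for a division of this pathway between cells: Sertoli cells take up glucose and release lactate to the germ cells they support, and germ cells make their own isozymes at several steps, some from retrogenes, which are intronless copies of a gene made from its mRNA. Leydig cells, which synthesize testosterone under luteinizing hormone (LH), respire and also make NADPH for steroid synthesis.

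The RNA came from testes of RiboTag mice, in which Cre recombinase puts a hemagglutinin (HA) tag on a ribosomal protein, so that an anti-HA immunoprecipitate (IP) holds the mRNAs bound to ribosomes of the Cre-expressing cells, while the input is total RNA of the same kind of homogenate. Cre was driven by AMH-Cre for Sertoli cells (AMH-Cre: RiboTag mice) and by Cyp17iCre for Leydig cells (Cyp17iCre: RiboTag mice), and each of the 32 samples was measured on 1 array. Values are log2 signals that the authors normalized by RMA. The study used equivalent amounts of RNA for every array, so a signal reflects the share of a transcript in a sample, not its copies per cell. Saline-treated AMH-Cre: RiboTag mice gave 5 inputs and 5 IPs, and saline-treated Cyp17iCre: RiboTag mice gave 3 of each. Hormone groups held 2 IPs each. In AMH-Cre: RiboTag mice these were acyline, acyline followed by FSH for 1 h, acyline followed by FSH for 4 h, cetrorelix (spelled centrorelix in the labels), and cetrorelix followed by testosterone for 4 h. Acyline and cetrorelix are gonadotropin-releasing hormone antagonists and were given for 3 days. In Cyp17iCre: RiboTag mice they were acyline for 4 days, acyline followed by LH for 1 h, and acyline followed by LH for 4 h. The hormone-treated AMH-Cre: RiboTag mice were adult, and for them and for the saline groups the study counts its arrays as mice. For the hormone-treated Cyp17iCre: RiboTag mice no source used here ties each array to its own animal, so p-values there may measure technical spread only. Arrays with cetrorelix, with or without testosterone, carry a source label of input that contradicts their titles and sample type, and are treated here as IPs.

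Markers of the tagged cells moved with the Cre line. Sertoli IPs exceeded the inputs for all 8 measured Sertoli cell markers and fell below them for all 6 Leydig cell markers, whereas Leydig IPs were higher for all 6 Leydig markers and for 1 of 8 Sertoli markers (transferrin, Trf) and lower for none of the 8. The study also saw HA staining in scattered tubule cells of the Cyp17iCre: RiboTag testis, and took these for Sertoli cells from its enrichment data. The summed signal of the 8 Sertoli markers was 11.34 to 11.41 (log2) in Leydig inputs and 11.73 to 11.96 in Leydig IPs. Leydig IPs may thus hold some Sertoli transcripts. Of 8 spermatid markers, 5 were lower in Sertoli IPs and 7 in Leydig IPs, and none was higher. Their summed signal was 15.45 to 15.57 (log2) in Sertoli inputs and 14.29 to 14.55 in Sertoli IPs, and 15.59 to 15.70 and 14.39 to 14.40 in Leydig, so spermatid transcripts were reduced in the IPs and still measured there. All 5 spermatocyte markers were lower in Sertoli IPs and 4 of 5 in Leydig IPs. Of 5 spermatogonia markers, 1 was higher and 3 lower in Sertoli IPs, and 2 were higher and 2 lower in Leydig IPs. Macrophage markers were lower for 4 of 6 in each line and higher for none. Of 4 peritubular markers, 1 was higher and 1 lower in each line. Of 2 erythroid markers, 1 was higher in Sertoli IPs and none was called in Leydig IPs. None of 4 endothelial markers was called in either line. Array medians lay between 6.36 and 6.50 on the log2 scale in all groups.

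The sequences upstream of Pgk1 and Pgk2, and of Pdha1 and Pdha2, show how the somatic and the germ cell member of these pairs differ at their start. Pgk1 and Pdha1 are X-linked, and Pgk2 on chromosome 17 and Pdha2 on chromosome 3 are their autosomal retrogenes, expressed in spermatogenic cells. The 250 bases before the annotated start are printed 5′ to 3′ from RefSeq (build GRCm38.p6), with each CG dinucleotide in capitals, because the somatic member of each pair was higher in the Leydig IPs and the germ cell member lower in the IPs of both lines.
Pgk1 (chrX:106186850-106187099, plus strand): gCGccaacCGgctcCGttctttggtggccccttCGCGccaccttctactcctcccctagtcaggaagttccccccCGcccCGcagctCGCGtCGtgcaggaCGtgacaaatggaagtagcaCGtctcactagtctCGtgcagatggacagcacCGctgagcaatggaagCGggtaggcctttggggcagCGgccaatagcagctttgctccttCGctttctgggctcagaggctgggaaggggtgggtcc
Pgk2 (chr17:40208610-40208859, minus strand): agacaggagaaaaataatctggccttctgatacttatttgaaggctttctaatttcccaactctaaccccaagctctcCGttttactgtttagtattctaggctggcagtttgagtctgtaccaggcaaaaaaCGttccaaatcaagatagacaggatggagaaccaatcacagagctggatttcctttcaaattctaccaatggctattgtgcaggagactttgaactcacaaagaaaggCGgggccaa
Pdha1 (chrX:160138431-160138680, minus strand): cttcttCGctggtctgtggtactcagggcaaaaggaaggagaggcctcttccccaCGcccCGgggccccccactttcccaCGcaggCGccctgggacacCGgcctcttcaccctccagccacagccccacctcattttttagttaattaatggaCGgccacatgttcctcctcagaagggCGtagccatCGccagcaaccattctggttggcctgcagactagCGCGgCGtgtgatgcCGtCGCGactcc
Pdha2 (chr3:141212356-141212605, minus strand): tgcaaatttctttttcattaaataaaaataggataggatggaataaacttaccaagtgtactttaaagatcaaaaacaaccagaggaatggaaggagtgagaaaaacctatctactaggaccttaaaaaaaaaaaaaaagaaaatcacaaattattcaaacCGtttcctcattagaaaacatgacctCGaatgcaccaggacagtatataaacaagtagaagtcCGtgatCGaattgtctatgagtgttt
Pgk1 had 17 CG dinucleotides and 62.8% G or C, against 3 and 42.0% for Pgk2. Pdha1 had 15 and 61.6%, against 4 and 31.6% for Pdha2. Over 32851 such windows of mouse genes the median was 6 CG dinucleotides with quartiles of 2 and 16, and the median G or C content was 52.4%, so the somatic members lay near or above the upper quartile and the germ cell members below the median. The hypoxia response core GACGTG was found, searching both strands, in the Pgk1 window and in 5.2% of all windows, and the GC box GGGCGG in the Pgk1 window and in 32.7%. A TATA box (TATAAA) was found in the Pdha2 window and in 12.4% of all. Matches of different motifs were counted separately, and some motifs share letters.

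Several somatic genes of the module were higher and several germ cell genes lower in the ribosome IPs of both lines. In Sertoli IPs, 8 of 32 members tested were higher than in the inputs and 8 were lower (at least 2-fold and limma adjusted p under 0.05), and the difference had a median of -0.17 (log2) against -0.03 over all probe sets tested. Calls were frequent among all probe sets: 12.4% were higher, 11.7% lower and 24.1% called in either direction. In Leydig IPs, 10 of 32 were higher and 8 lower, with a median of -0.06 against -0.03 over all, where 11% of all probe sets were higher, 10.7% lower and 21.7% called. All IPs lay above all inputs for 13 members and below them for 13 in Sertoli, against 27.2% and 31.9% of all probe sets, and for 14 and 14 in Leydig, against 30.9% and 36%. No array is shared between the lines. The share of all probe sets called alike in both lines was not computed, so the counts for both lines that follow have no background. Higher in both lines were 7 genes, Slc2a1, Pfkl, Pgk1, Pgam1, Pkm, Ldhb and Pdk1. Lower in both were 5, Gapdhs, Pgk2, Pgam2, Pdha2 and Slc2a3, and 1 gene, Aldoc, was lower in Sertoli and higher in Leydig IPs. Another 10 members were called in neither line. A lower signal in the IPs does not by itself mark a germ cell gene, since macrophage markers were lower too. In bulk samples, fewer cells of a type and less RNA per cell cannot be told apart.

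**Figure D1:**
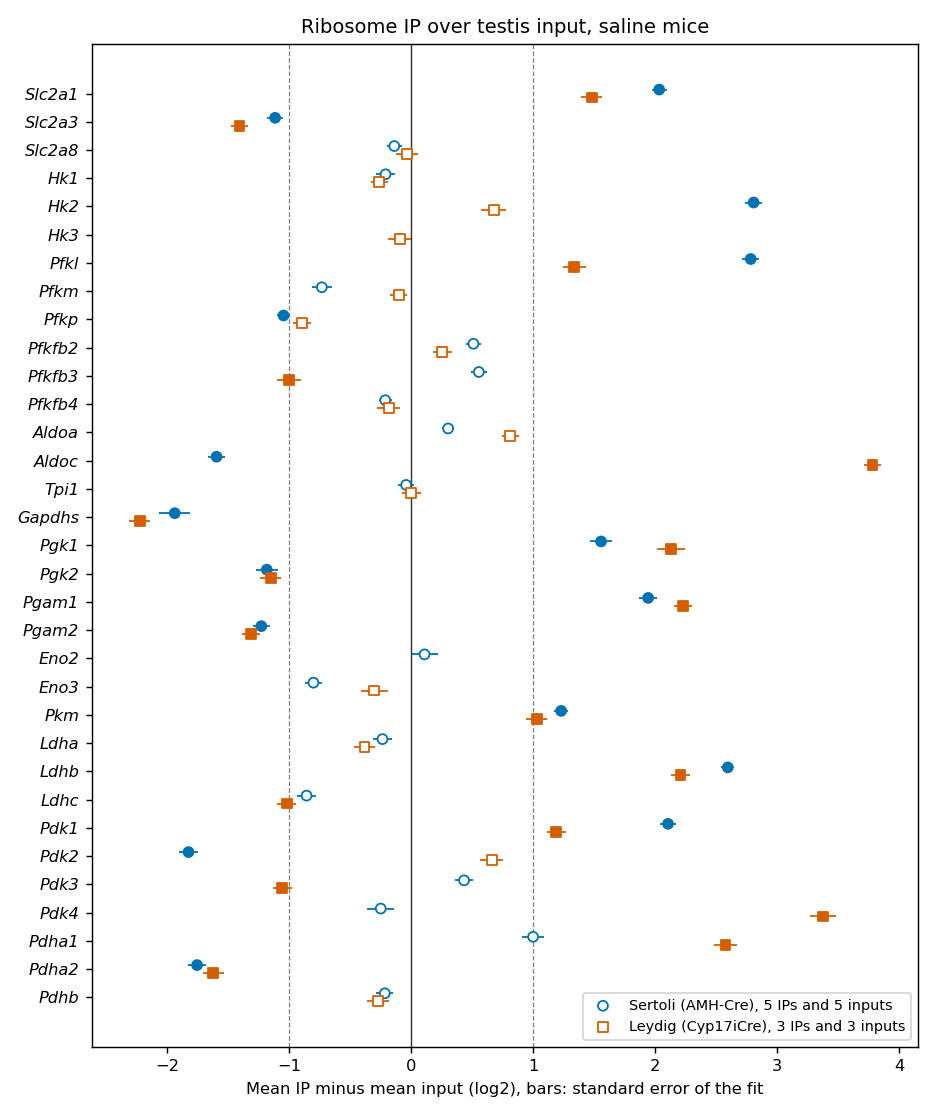
Mean IP minus mean input on the log2 scale for each member tested, in the order of the pathway from top to bottom, with the standard error of the fit as bars; filled symbols were called, and dashed lines mark a 2-fold difference. Blue circles are Sertoli IPs and orange squares Leydig IPs; Aldoc (-1.60 and 3.78), Hk2 (2.81 and 0.68) and Pdk4 (-0.25 and 3.38) lie far apart between the lines.

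Glucose transporters divided by isoform. Slc2a1 (GLUT1), the main somatic glucose transporter, measured 8.25, 8.23, 8.24, 8.19 and 8.32 (log2 signal) in the Sertoli inputs and 10.18, 10.39, 10.40, 10.18 and 10.25 in the IPs. Every IP lay above every input, by 4.09-fold on average (log2 2.03, standard error 0.063, limma adjusted p = 1.74e-10). In the Leydig inputs it measured 8.21, 8.0 and 8.19, and in the IPs 9.54, 9.68 and 9.62, which is 2.79-fold (log2 1.48, standard error 0.086, adjusted p = 2.85e-06, limma). Slc2a3 (GLUT3), a high-affinity transporter known from neurons and germ cells, went the other way. Sertoli inputs ranged from 13.07 to 13.25 and IPs from 11.95 to 12.17, a ratio of 0.461, and had a ratio of 0.377 in Leydig. Slc2a8 (GLUT8), another transporter of the testis, differed little, with log2 differences of -0.14 (standard error 0.062) and -0.03 (standard error 0.092), and was not called.

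Hexokinases differed between the somatic cell types. Hk2, the inducible hexokinase of insulin-sensitive tissues, measured 8.92, 8.67, 8.75, 8.96 and 8.91 in Sertoli inputs and 11.68, 11.64, 11.58, 11.62 and 11.73 in Sertoli IPs, the largest ratio of any member in that line (7.0-fold, log2 2.81, standard error 0.068, limma adjusted p = 8.21e-11). In Leydig IPs it measured 9.30, 9.28 and 9.59 against 8.62, 8.73 and 8.80 in the inputs. The groups did not overlap, yet the difference of 0.68 (log2, standard error 0.11) missed the 2-fold threshold. Hk1, the hexokinase of most tissues and of sperm, had a pair of probe sets. The probe set of the annotated Hk1 transcript was lower in the IPs by ratios of 0.598 (Sertoli) and 0.536 (Leydig), short of 2-fold. The brighter probe set, which stands for Hk1 under the rule used, differed by -0.21 and -0.26 (log2) and followed the mean of 16 probe sets that name both Hk1 and Rpl17 (Pearson r = 0.92 over the 32 arrays, which share line and treatment), against r = 0.40 for the other, so it may not report Hk1 mRNA alone. Hk3, a hexokinase of blood cells, lay between 5.14 and 5.68 in all saline arrays, near the signal threshold, and was tested in Leydig only (-0.09, standard error 0.098).

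Phosphofructokinase subunits separated in both lines. Pfkl, the liver type, rose from 7.94, 7.93, 8.10, 8.15 and 8.26 in Sertoli inputs to 10.83, 10.90, 10.86, 10.83 and 10.87 in the IPs (6.88-fold, log2 2.78, standard error 0.069, limma adjusted p = 8.21e-11). In Leydig it went from 7.78, 7.88 and 7.97 to 9.24, 9.07 and 9.33 (2.52-fold). Pfkp, the platelet type, was lower in the Sertoli IPs (ratio 0.484) and, short of the threshold, in the Leydig IPs (ratio 0.538). Pfkm, the muscle type, which is also found in sperm, had a ratio of 0.602 in Sertoli and 0.931 in Leydig, neither called. The Pfkl signal relative to the Pfkm signal thus shifted from input to IP by 3.52 (log2, standard error 0.12) in Sertoli and by 1.44 (standard error 0.098) in Leydig. Among the enzymes that make and break fructose-2,6-bisphosphate, the activator of phosphofructokinase, Pfkfb3 differed most between lines: 9.76, 9.73, 9.69, 9.67 and 9.50 in Sertoli inputs against 10.23, 10.30, 10.28, 10.12 and 10.19 in IPs, and 9.29, 9.44 and 9.20 in Leydig inputs against 8.31, 8.18 and 8.43 in IPs. The Leydig fall had a ratio of 0.499 (log2 -1.0, standard error 0.097, limma adjusted p = 4.49e-05) and missed the fold threshold without replicate 2 of either group (-0.94 in both cases). Pfkfb2 (0.51 and 0.25) and Pfkfb4 (-0.21 and -0.19), the latter known from testis, were called in neither line.

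Aldolase gave the widest contrast of the module. Aldoc, the aldolase of brain, measured 8.24, 8.15, 8.21, 8.11 and 8.12 in Sertoli inputs and 6.69, 6.63, 6.59, 6.59 and 6.36 in Sertoli IPs. In Leydig it measured 8.0, 7.92 and 7.99 in inputs and 11.78, 11.77 and 11.70 in IPs. The inputs of the lines lay close together while the IPs were separated by more than any other member's, in opposite directions from the input: a ratio of 0.331 in Sertoli (log2 -1.60, standard error 0.068, limma adjusted p = 1.12e-09) and 13.7-fold in Leydig (log2 3.78, standard error 0.069, adjusted p = 1.88e-07, limma). Aldoa, the aldolase of muscle and most tissues, was higher in every IP than in every input of its line, by 1.23-fold and 1.75-fold, and was not called. Tpi1, triose-phosphate isomerase, the only gene known for its step, differed by -0.04 (log2, standard error 0.063) in Sertoli and 0.00 (standard error 0.079) in Leydig.

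The lower steps carried the clearest isozyme pairs. Gapdhs, the glyceraldehyde-3-phosphate dehydrogenase of the sperm tail, measured 12.22, 12.27, 12.17, 12.43 and 12.41 in Sertoli inputs against 9.89, 10.44, 10.27, 10.63 and 10.56 in IPs. Its ratio of 0.261 (log2 -1.94, standard error 0.13) was the lowest of the members in Sertoli, and 0.214 in Leydig (log2 -2.23, standard error 0.084) the lowest there. Pgk1, the somatic phosphoglycerate kinase, measured 8.49, 8.25, 8.44, 8.64 and 8.53 in Sertoli inputs and 10.03, 9.81, 9.98, 10.16 and 10.15 in IPs (2.94-fold), and 8.14, 8.37 and 8.52 in Leydig inputs and 10.42, 10.41 and 10.60 in IPs (4.38-fold). Pgk2, its testis retrogene, fell in the same comparisons from 12.21, 12.16, 12.22, 12.00 and 12.00 to 10.83, 10.83, 10.78, 11.03 and 11.20 (ratio 0.440), and from 12.45, 12.37 and 12.42 to 11.16, 11.21 and 11.41 (ratio 0.450). No IP overlapped an input for either gene, and the signal of Pgk1 relative to Pgk2 shifted by 2.74 (log2, standard error 0.11) in Sertoli and 3.28 (standard error 0.13) in Leydig.

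Phosphoglycerate mutase behaved alike. Pgam1, the brain and general form, was higher 3.84-fold in Sertoli IPs and 4.68-fold in Leydig IPs, and its other probe sets gave log2 differences of 1.95 and 2.17. Pgam2, the muscle form that germ cells also make, had ratios of 0.427 and 0.403. The relative signal of the pair shifted by 3.17 (log2, standard error 0.087) and 3.54 (standard error 0.091). Of the enolases, Eno3, the muscle form, lay between 9.56 and 9.68 in Sertoli inputs and between 8.68 and 8.98 in IPs, a ratio of 0.574 that missed the threshold, and Eno2, the neuronal form, stayed near the signal threshold in all arrays. Pkm, pyruvate kinase of the muscle type, was higher 2.34-fold in Sertoli and 2.04-fold in Leydig, and its other probe set, at 1.82-fold and 1.61-fold, was not called; without replicate 1 of the Leydig inputs the log2 difference of the called probe set fell from 1.03 to 0.96.

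Lactate dehydrogenase separated 3 subunits that were measured apart. Ldhb, the heart subunit, measured 9.27, 9.22, 9.13, 9.29 and 9.26 in Sertoli inputs and 11.89, 11.85, 11.78, 11.84 and 11.79 in IPs, and 9.15, 9.02 and 9.14 in Leydig inputs and 11.31, 11.37 and 11.26 in IPs. That is 6.04-fold in Sertoli (log2 2.60, standard error 0.053, limma adjusted p = 8.21e-11) and 4.62-fold in Leydig (log2 2.21, standard error 0.075, adjusted p = 3.54e-07, limma). Ldha, the muscle subunit known for lactate output, was not higher in either IP. It measured 13.28, 13.25, 13.35, 13.11 and 12.94 in Sertoli inputs and 12.92, 12.99, 12.97, 12.96 and 12.89 in IPs, with overlapping groups and a log2 difference of -0.24 (standard error 0.077), and differed by -0.38 (standard error 0.089) in Leydig, where all 3 IPs lay below the inputs. The input level of Ldha includes germ cells, and the probe sets of different genes cannot be compared in level. Ldhc, the sperm subunit, whose gene lies next to Ldha on chromosome 7, was lower in every IP: the ratio was 0.552 in Sertoli, not called, and 0.492 in Leydig (log2 -1.02, standard error 0.078), with -0.99 and -0.98 (log2), not called, without replicate 3 of the inputs or replicate 1 of the IPs. From input to IP, Ldhb gained on Ldha by 2.83 (log2, standard error 0.096) in Sertoli and 2.59 (standard error 0.12) in Leydig.

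**Figure D2:**
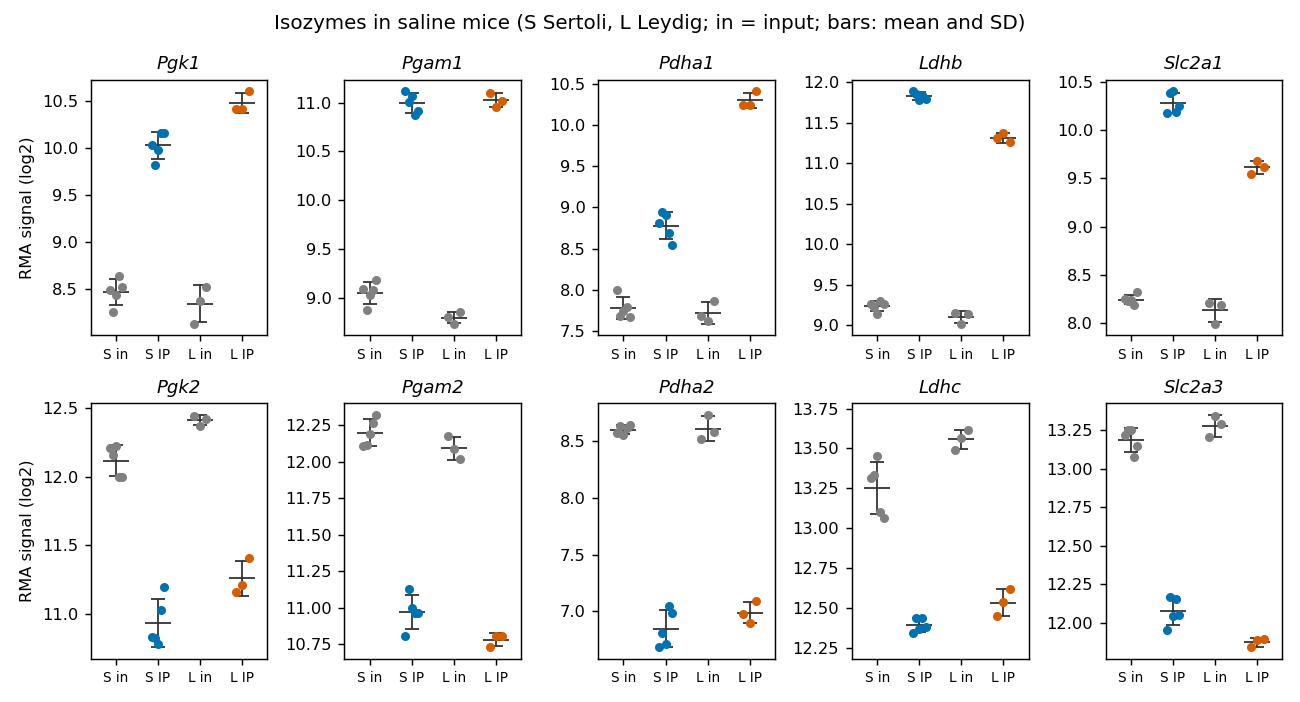
Log2 signal of each saline array for 5 genes higher in the IPs (upper row) and a germ cell or other paralog of each (lower row), with the mean and SD as bars; S is Sertoli, L is Leydig, and in is input. For the 5 upper genes the IPs lie above the inputs and for the 5 lower genes under them, and for Pdha1 and Pgk1 all Leydig IPs lie above all Sertoli IPs.

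Pyruvate dehydrogenase and its kinases separated the Sertoli from the Leydig IPs. Pdha1, the somatic E1 alpha subunit, measured 8.0, 7.68, 7.74, 7.80 and 7.67 in Sertoli inputs and 8.81, 8.94, 8.90, 8.69 and 8.55 in IPs. Its log2 difference of 0.999 (standard error 0.091) lay just under the 2-fold threshold. In Leydig it measured 7.68, 7.62 and 7.87 in inputs and 10.24, 10.24 and 10.41 in IPs (5.96-fold, log2 2.58, standard error 0.093, limma adjusted p = 4.09e-07). Pdha2, the spermatogenic retrogene, had ratios of 0.296 in Sertoli and 0.325 in Leydig, so the relative signal of the pair shifted by 2.76 (log2, standard error 0.15) and 4.20 (standard error 0.12). Pdhb, the E1 beta subunit, was not called (-0.22 and -0.27).

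The 4 kinases each had their own pattern. Pdk1, a kinase known as a hypoxia target, was higher in the IPs of both lines, 4.30-fold in Sertoli and 2.28-fold in Leydig. Pdk2, the most widespread kinase, measured 10.79, 10.87, 10.75, 10.90 and 10.87 in Sertoli inputs and 8.81, 8.99, 8.97, 9.20 and 9.08 in Sertoli IPs (ratio 0.282), but 10.98, 10.94 and 11.02 in Leydig inputs and 11.62, 11.80 and 11.50 in Leydig IPs (1.58-fold, not called). Pdk3, an X-linked kinase known from testis and brain, ran the opposite way, 1.35-fold higher in the Sertoli IPs and not called, and 0.480 in the Leydig IPs. Pdk4, the kinase induced by fasting and fatty acid use, measured 5.27, 5.11, 5.46, 5.67 and 5.45 in Sertoli inputs and 5.04, 5.43, 5.10, 5.07 and 5.08 in Sertoli IPs, values around or below the signal threshold of 50 (linear), which 1 of the inputs passed. In Leydig inputs it measured 5.75, 5.52 and 5.81, and in Leydig IPs 9.06, 8.95 and 9.20 (at least 10.4-fold, log2 3.38, standard error 0.11, limma adjusted p = 2.88e-07). The fold is a lower bound, since the Leydig inputs lay close to that threshold, where a signal cannot be told from background.

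The difference between the enrichments was tested itself, as Leydig IP over input minus Sertoli IP over input. Of 33 members, 4 were higher in Leydig and 4 higher in Sertoli, where 5.48% of all probe sets were higher in Leydig, 5.98% higher in Sertoli and 11.5% called. The median of the members was -0.05 (log2) against -0.03 over all. Higher in Leydig were Aldoc by 5.38 (log2, standard error 0.098, limma adjusted p = 1.01e-14), Pdk4 by 3.63 (standard error 0.17), Pdk2 by 2.49 (standard error 0.12) and Pdha1 by 1.58 (standard error 0.14). For Pdk4 no group but the Leydig IPs lay clearly above the signal threshold, so the size of its difference is uncertain. Higher in Sertoli were Hk2 (-2.13, standard error 0.12), Pfkfb3 (-1.56, standard error 0.11), Pdk3 (-1.49, standard error 0.11) and Pfkl (-1.45, standard error 0.11). The genes higher in Sertoli thus were a hexokinase, a phosphofructokinase subunit, a fructose-2,6-bisphosphate enzyme and a PDK, and those higher in Leydig an aldolase, a pyruvate dehydrogenase subunit and other PDKs. None of the germ cell genes Gapdhs, Pgk2, Pgam2, Ldhc, Pdha2 and Slc2a3 was called, with differences between -0.29 and 0.13. Input levels of the members differed little between lines, by a median of -0.08 (Leydig minus Sertoli, log2), from -0.59 for Eno3 to 0.30 for Ldhc.

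**Figure D3:**
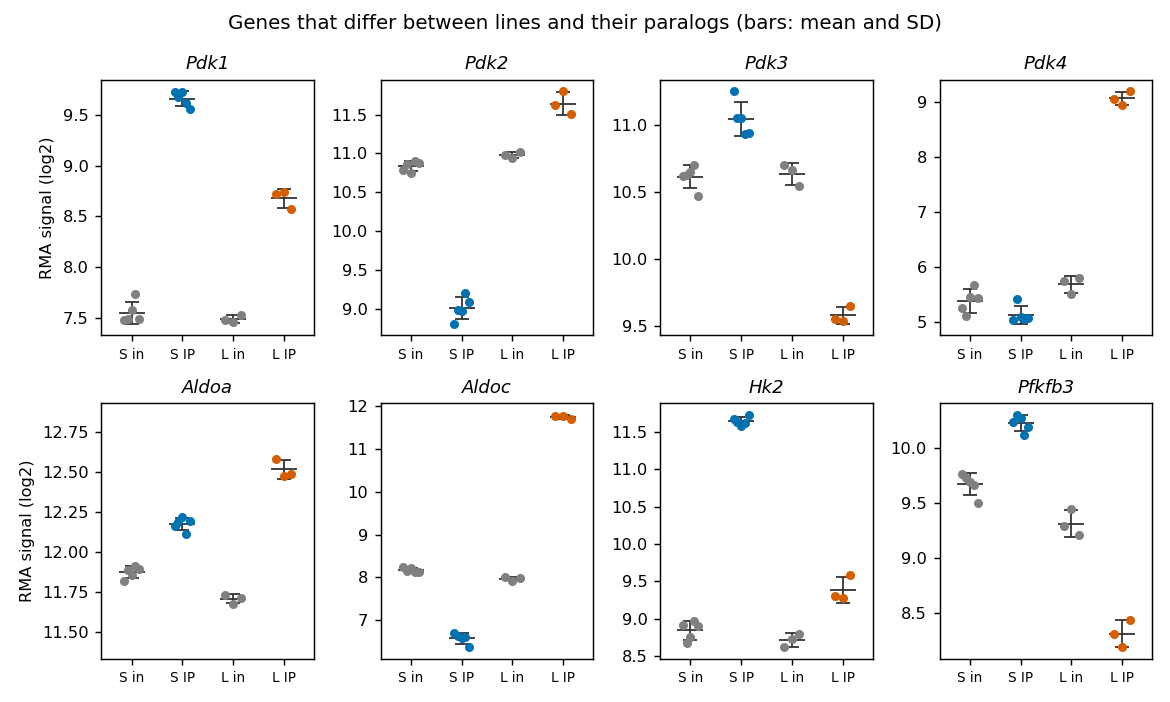
Log2 signal of each saline array for the 4 PDK genes, both aldolases, Hk2 and Pfkfb3, with the mean and SD as bars; S is Sertoli, L is Leydig, and in is input. Pdk2 and Aldoc move from the input in opposite directions in the lines, Pdk4 stands above its input in Leydig IPs alone, and Hk2 reaches 11.65 in Sertoli against 9.39 in Leydig IPs.

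Neighboring pathways were described from lists that were also chosen with earlier results of these data known. Their counts stand beside the shares of all probe sets given above (12.4% higher and 11.7% lower in Sertoli, 11% and 10.7% in Leydig). Germ cell isozymes outside the module were lower in both lines for 4 of 5 genes, among them the retrogene aldolases Aldoart1 (log2 -1.61 in Sertoli and -1.64 in Leydig) and Aldoart2 (-1.56 and -1.88) and the sperm enolase Eno4 (-1.48 and -1.54). The shuttles that carry NADH from glycolysis into mitochondria were higher for 7 of 9 genes and lower for 1 in each line. Among those higher were the aspartate-glutamate carrier Slc25a13 at 6.52-fold and the glycerol-3-phosphate dehydrogenase Gpd1 at 5.30-fold in Sertoli, and malate dehydrogenase Mdh1 at 5.95-fold in Leydig. Of 15 citric acid cycle genes, 3 were higher in Sertoli and 6 in Leydig IPs, and none was lower; the Sertoli count is not far from the share of all probe sets. Of 11 glycogen genes, 5 were higher in Sertoli (the phosphorylase Pygb 5.39-fold) and 9 in Leydig (the phosphoglucomutase Pgm1 4.96-fold).

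Other lists of this kind covered routes that branch from glycolysis and the response to low oxygen. Of 9 pentose phosphate genes, 4 were higher and 2 lower in Leydig IPs, with transketolase (Tkt) at 10.8-fold and 6-phosphogluconate dehydrogenase (Pgd) at 4.39-fold. In Sertoli IPs 3 were higher and 2 lower, and Tkt differed between the lines by 2.66 (log2, standard error 0.17). Of 6 gluconeogenesis genes, 3 were higher and 1 lower in Leydig IPs, and none was higher and 1 lower in Sertoli IPs. Pyruvate carboxylase (Pcx) was 4.46-fold higher in Leydig and differed between lines by 1.51 (log2), whereas fructose bisphosphatase Fbp1 was lower in both (-1.50 in Sertoli and -1.29 in Leydig). Of 7 other genes of the pyruvate dehydrogenase complex and the pyruvate carrier, 2 were higher in each line and none was lower. Between lines, 1 of these was higher in Leydig, the carrier subunit Mpc1 (1.66), and 1 in Sertoli, the phosphatase regulatory subunit Pdpr (-1.45). Of 13 genes of the hypoxia-inducible factor (HIF) pathway tested in Sertoli, 6 were higher and none lower, among them Epas1 (5.42-fold), P4ha1 (5.72-fold) and Ndrg1 (5.25-fold), against 3 of 12 in Leydig. Between lines Epas1 (-2.42), Ndrg1 (-2.35) and Hif1a (-1.38) were higher in Sertoli, and the mitophagy receptor Bnip3 (2.39) in Leydig. Of 6 other hexose transporters, 2 were higher and 1 lower in Sertoli IPs, and none was higher and 1 lower in Leydig IPs. Slc2a12 (GLUT12) was 6.47-fold higher in Sertoli IPs, and its enrichment differed between the lines by -2.76 (log2, standard error 0.18).

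The upstream sequences were compared over the 7 genes higher in both lines and the 6 germ cell genes, as a description. Among the former, the window with the most CG dinucleotides held 13 in Slc2a1, 13 in Pfkl, 14 in Ldhb, 17 in Pgk1, 19 in Pdk1, 21 in Pkm and 22 in Pgam1, all above the median of 6 for all windows. Among the germ cell genes it held 1 in Gapdhs, 1 in Pgam2, 3 in Pgk2, 4 in Pdha2 and 8 in Ldhc, and Slc2a3 had no entry. Second windows of the same genes could be low, as in Pdk1 with 2, so the start chosen matters. High counts also occurred in members called lower in the IPs of 1 line, with 16 in Pfkp, 19 in Pdk2, 24 in Pfkfb3 and 29 in Pdk3. The Leydig genes Aldoc (5 and 3 over its windows) and Pdk4 (6) lay at or below the median, and Hk2, higher in Sertoli, had 25. The cyclic AMP response element TGACGTCA was found in 1 window of Ldha and in 1.5% of all windows.

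No member of the module was called in Leydig IPs for acyline over saline or for LH over acyline. After acyline, 0 of 31 members tested passed a 1.5-fold change with limma adjusted p under 0.05 (8 had an unadjusted p under 0.05), where 0.143% of all probe sets were called. At LH 1 h over acyline 0 of 31 passed (2 unadjusted; 0.00818% of all probe sets), and at LH 4 h over acyline 0 of 31 passed (6 unadjusted; 0.613% of all). Medians of the members were -0.01, -0.02 and 0.00 (log2), against 0.01, -0.01 and 0.00 over all. At LH 4 h over saline 3 of 31 passed, 1 higher and 2 lower, against 3.32% of all probe sets (1.57% higher and 1.75% lower). The median of the members was 0.02 against -0.01 over all. This comparison with saline mice spans acyline and LH together, so its calls cannot be assigned to either alone. Comparisons with acyline share the acyline arrays and comparisons with saline share the saline arrays, so they are not independent.

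Aldoc and Pdk4, the members most enriched in Leydig IPs, were lower at LH 4 h than in saline mice. Both calls were lost under several alternative settings, given with those of Gapdhs below. Aldoc measured 11.78, 11.77 and 11.70 in saline IPs, 11.49 and 11.47 after acyline, 11.40 and 11.40 at LH 1 h, and 11.24 and 10.88 at LH 4 h. All treated arrays lay below all saline arrays, and the difference at LH 4 h was -0.69 (log2, standard error 0.11, limma adjusted p = 0.0161). Pdk4 measured 9.06, 8.95 and 9.20 in saline IPs, 8.77 and 8.52 after acyline, 9.06 and 8.91 at LH 1 h, and 8.49 and 8.11 at LH 4 h. The LH 1 h arrays overlapped the saline arrays and the LH 4 h arrays lay below all others, with a difference from saline of -0.77 (log2, standard error 0.14, limma adjusted p = 0.0238). Pkm measured 11.36, 11.35 and 11.36 in saline IPs and 10.89 and 10.85 at LH 4 h, a difference of -0.49 (standard error 0.080, limma adjusted p = 0.0158) that passed the p threshold and not the fold. The 6 Leydig markers together had a summed signal of 15.14 to 15.18 (log2) in saline, 14.76 to 14.91 after acyline and 15.07 to 15.36 at LH 4 h, and 0 of them was called at LH 4 h over saline (limma; 4 had an unadjusted p under 0.05, with differences from -0.32 to 0.49). Of the 8 Sertoli markers 0 was called (limma, 2 unadjusted), with Trf at -1.01. Of 5 spermatogonia markers Zbtb16 was lower (-1.67, limma adjusted p = 0.0283). At LH 4 h over acyline the 1 of the 5 called lower was another, Kit, and Zbtb16 was not called. In saline mice 2 of these 5 were higher and 2 lower in Leydig IPs than in inputs, unlike the other germ cell markers. The part of all these markers in the differences of Aldoc and Pdk4 was not tested.

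Gapdhs, the sperm tail enzyme, was the member higher at LH 4 h than in saline IPs. It measured 10.12, 10.37 and 10.21 in saline, 10.53 and 10.80 after acyline, 10.26 and 10.59 at LH 1 h, and 11.35 and 10.86 at LH 4 h, a difference of 0.88 (log2, standard error 0.17, limma adjusted p = 0.0282). Of the 8 spermatid markers 0 was called (3 had an unadjusted p under 0.05), with a median difference of 0.27 and a range of -0.003 to 0.40. Their summed signal was 14.39 to 14.40 in saline and 14.35 to 14.74 at LH 4 h, with the groups overlapping, and the part of spermatid RNA in the Gapdhs difference was not tested. The other 5 germ cell genes of the module were not called. With the replicate number as a block the 3 genes were not called (limma adjusted p = 0.0652 for Aldoc, 0.0605 for Pdk4 and 0.102 for Gapdhs), nor with ordinary contrasts without moderated variances (adjusted p from 0.0503 to 0.0979). All 3 calls were lost without replicate 1 or without replicate 2 of the saline IPs (limma adjusted p from 0.0517 to 0.0836), and without replicate 3 that of Aldoc remained. Without replicate 1 of the LH 4 h arrays Gapdhs was not called (0.63, log2), and without replicate 2 neither Aldoc (-0.51) nor Pdk4 (-0.58) was. Of 80 genes in the neighboring lists, 1 was called in these comparisons: Pdp1, the phosphatase that reactivates pyruvate dehydrogenase. At LH 4 h over acyline, where 0.613% of all probe sets were called, Pdp1 fell by 1.07 (log2, standard error 0.16, limma adjusted p = 0.039). Over saline, where 3.32% of all were called, it fell by 0.82 (standard error 0.14, limma adjusted p = 0.0205).

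**Figure D4:**
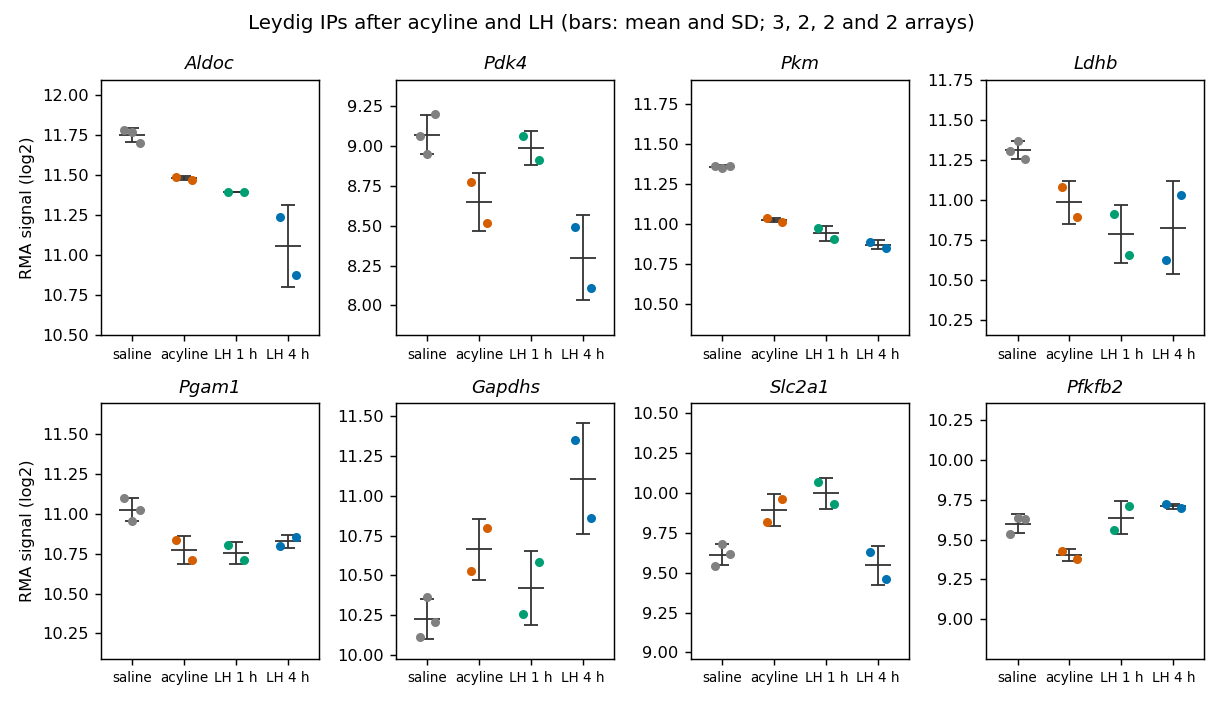
Log2 signal of each Leydig IP array for 8 members by treatment, with the mean and SD as bars; each panel has its own axis. Aldoc falls from a mean of 11.75 in saline to 11.06 at LH 4 h and Pdk4 from 9.07 to 8.30, while Gapdhs rises from 10.23 to 11.11.

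No member was called in Sertoli IPs under any treatment. The counts called at 1.5-fold and limma adjusted p under 0.05 were 0 of 32 members for acyline over saline (1 with unadjusted p under 0.05), cetrorelix over saline (2), testosterone over cetrorelix (3), FSH 1 h over acyline (3) and FSH 4 h over acyline (0). Among all probe sets 0.00406%, 0.0122%, 0.00406%, 0% and 0.0203% were called, so 0 calls among the members is near the background. Pdk4 was below the signal threshold in all Sertoli IPs and was not tested. Hk2 measured 11.68 and 11.75 after acyline, 11.63 and 11.64 at FSH 1 h, 11.68 and 11.71 at FSH 4 h, 11.69 and 11.63 after cetrorelix, and 11.43 and 11.54 after testosterone, against 11.58 to 11.73 in saline. The testosterone arrays lay below the saline range and the others overlapped it. Ldhb, the lactate dehydrogenase subunit most enriched in Sertoli IPs, lay between 11.72 and 11.94 in all 10 treated arrays. Slc2a1 lay between 9.99 and 10.36 in them, against 10.18 to 10.40 in saline.

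The largest differences in Sertoli IPs lay under the fold threshold. At FSH 1 h over acyline the enolases Eno3 and Eno2 differed by 0.41 and 0.39 (log2), and Eno3 had a limma adjusted p of 0.363. All 5 spermatocyte markers differed the same way there, by 0.57 to 0.76, each with an unadjusted p under 0.05 and none called, and their summed signal was 11.28 to 11.82 at FSH 1 h against 10.84 to 10.97 after acyline; their part in the Eno3 difference was not tested. Pgk2 differed by -0.35 after cetrorelix over saline and by 0.35 after testosterone over cetrorelix, comparisons that share the cetrorelix arrays (limma adjusted p = 0.933 and 0.930). The median standard error of a member was 0.089 for the comparisons with saline and 0.11 for those between treated groups of 2. Differences well above these errors, such as 0.41 for Eno3 and -0.35 for Pgk2, did not pass. With 2 arrays a group, changes of that size or smaller could thus go undetected. The test of the acyline effect itself, Leydig minus Sertoli, called 0 of 33 members (3 with an unadjusted p under 0.05), where 0.0669% of all probe sets were called.

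**Figure D5:**
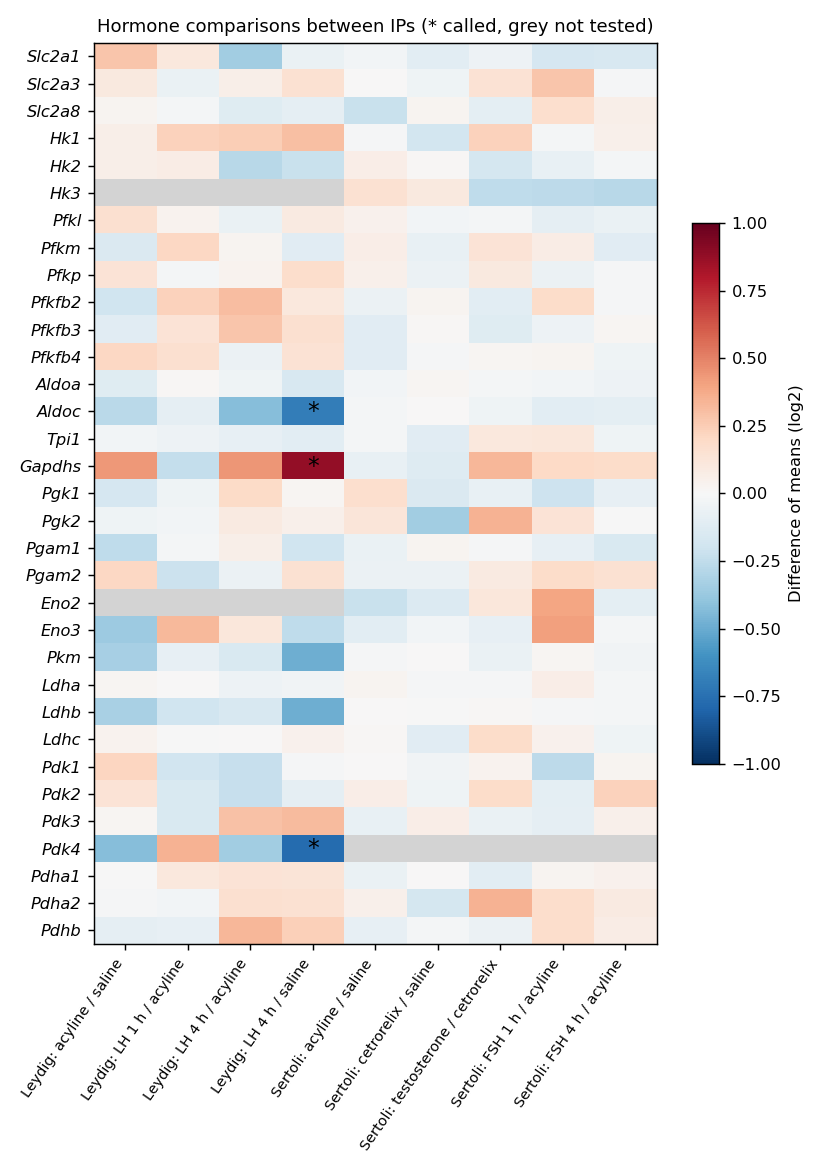
Difference of mean log2 signal between IPs for each member and hormone comparison, in pathway order; red is higher and blue lower in the treatment named before the slash, stars mark calls and grey members not tested. Only Aldoc (-0.69), Pdk4 (-0.77) and Gapdhs (0.88) at LH 4 h over saline are starred, and the Sertoli columns stay within 0.41.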

How the data were processed

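RNA of testis input and of anti-HA ribosome IPs was amplified, labeled and hybridized to Affymetrix Mouse Gene 1.0 ST arrays. For 35556 probe sets the authors deposited log2 signals after RMA; the RMA version is not stated in those sources. No depth applies to arrays, and the number of arrays limits the precision.

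A single gene symbol is given for 21789 of them and several for 1621; the 12146 that the platform table does not list are unnamed here. Each member, or gene of another list, was represented by the probe set with the highest mean over all arrays; 5 members had several, and 2 pairs of these (Pgk1, Pgam1) hold identical values. No probe was matched to a genome, and shared hybridization between paralogs was not tested.

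Moderated contrasts were computed with limma 3.58.1 in R 4.3.3 and adjusted by the Benjamini-Hochberg method over all probe sets with linear signal over 50 in at least 1 array of the fit. Calls needed a fold of 2 (IP over input, difference between enrichments) or 1.5 (between IPs), with adjusted p under 0.05. IP over input was fitted within a line, and hormone effects among all IPs of a line. The code was tested on simulated data. Named were all members and, per neighboring list and comparison, at most the 4 largest calls. Members and lists were chosen with earlier results of these data known. Alternatives were the filter, normalization, variance moderation, adjustment, samples fitted, replicate block, probe set and leaving out arrays; those for Hk1 and FSH 1 h were added after seeing the data. Promoter windows came from RefSeq.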

Additional observations from a re-analysis of the deposited data

Results flagged for a closer look

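In groups of 5 arrays, 1 array stood far from the others for 2 of the members. Hk1 read 11.46 in Sertoli IP replicate 5, where the others lay between 11.65 and 11.70, and Pdk4 read 5.43 in Sertoli IP replicate 2, where the others lay between 5.04 and 5.10, near the signal threshold. Chance gives such a gap in about 1 in 20 groups, and 66 groups were tested.

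The enrichment differed between Leydig and Sertoli IPs by the test of the difference itself for 8 members. The log2 differences (Leydig minus Sertoli) were 5.38 for Aldoc, 3.63 for Pdk4, 2.49 for Pdk2, 1.58 for Pdha1, -1.45 for Pfkl, -1.49 for Pdk3, -1.56 for Pfkfb3 and -2.13 for Hk2.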

How the results depend on the processing

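Of 224 counts of members recomputed under an alternative, 219 stayed within 1.5 times the reported count. The other 5 belong to LH 4 h over saline, where 3 members were called: the count was 0 under ordinary contrasts with adjusted p, 0 with the replicate number as a block, and between 0 and 2 with 1 array left out. The study sets IPs against their respective inputs, and the labels do not say that equal numbers mark them. Deviations of same-numbered inputs and IPs correlated between -0.04 and 0.14 (Sertoli) and 0.03 and 0.15 (Leydig), too weakly in some pairs to take the numbers as a pairing. With the block, 16 members were called in Sertoli IPs over input, 18 in Leydig and 8 between them, as without it. Of 843 single-gene results under an alternative, 817 kept direction and call, 26 lost the call and 0 reversed; 17 of the lost ones belong to LH 4 h over saline and 9 to Pkm, Pdk3, Pfkfb3 and Ldhc near the 2-fold threshold. No alternative moved the median of all probe sets by more than 0.087 (log2). Groups of 2 arrays and signals near background limit Pdk4, Eno2 and Hk3 most.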
